A study of Homo sapiens with 6 samples.

Results

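The genes described here are 10 transcriptional targets of beta-catenin, namely AXIN2, NKD1, NOTUM, RNF43, ZNRF3, LGR5, TCF7, LEF1, SP5 and GLUL. They were picked by gene symbol, and all 10 were found among the 34036 rows of the count table. All 10 also passed the filter on low counts, which left 14476 genes for testing. RNA was sequenced from HepG2, a line of human hepatocellular carcinoma cells grown in EMEM with fetal bovine serum. The 3 siCON cultures received a non-targeting siRNA and the 3 siDGk cultures received a pool of siRNAs against DGUOK, both delivered with Lipofectamine RNAiMAX. Cells were collected 48 h later, and the replicates are labelled as independent biological replicates. In the labels, the field for treatment gives the control for all 6 samples, so the groups were read from sample titles. HepG2 cells carry a deletion in CTNNB1 that stabilizes beta-catenin. Both groups share this background, which gene counts cannot show, and a pool of siRNAs does not separate the effect of 1 siRNA from that of another.

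Beta-catenin is the transcriptional arm of Wnt signaling. Without a Wnt signal it is bound by a destruction complex of axin, APC and kinases and is degraded; with a signal it accumulates, enters the nucleus and activates genes together with TCF and LEF factors. Many of its targets feed back on the pathway, and in the liver its activity is highest around the central vein, where it sets the zonation of hepatocyte genes such as GLUL.

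Library totals on genes were 19065684, 18915508 and 10527216 counts in siCON replicates 1, 2 and 3, and 18613138, 15978314 and 21334876 counts in siDGk replicates 1, 2 and 3. The siCON replicate 3 library was the shallowest, and 3 counts correspond there to 0.286 CPM (counts scaled to a common library size by TMM). The siDGk replicate 1 library stood apart in the number of genes with a count. It had 21057, whereas the other libraries had between 16205 and 17583. DGUOK, which encodes the mitochondrial deoxyguanosine kinase, was at 54.4, 53.1 and 48.2 CPM in the siCON libraries and at 9.08, 10.5 and 6.72 CPM in the siDGk libraries. The groups did not overlap, so the targeted gene went with the labels in all 6 libraries. Its log2 fold change was −2.57, with a standard error (SE) of 0.19.

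The cell label was checked against hepatocyte markers. ALB, which encodes albumin, was the most abundant of 9 such genes in siCON libraries, and was below SERPINA1 and TF in every siDGk library. Its level was 18791, 14273 and 15276 CPM in siCON libraries and 6327, 5595 and 4280 CPM in siDGk libraries. None of the 9 genes was at 0 in any library. Of the 9, 8 were called lower in siDGk cells (88.9%, beside 6.68% of all genes) and SERPINA1 was not called (log2 fold change 0.02). The summed level of the list was between 46127 and 52875 CPM in siCON and between 22503 and 27418 CPM in siDGk libraries. In bulk RNA, fewer cells of a kind and less RNA per cell cannot be told apart.

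In edgeR's quasi-likelihood test, 3 of the 10 target genes were called higher in siDGk cells (AXIN2, RNF43 and TCF7) and 0 were called lower, where a call requires a log2 fold change of more than 0.5 in size and a Benjamini-Hochberg adjusted p under 0.05. Over all 14476 genes tested, 7.42% were called higher and 6.68% lower. At the adjusted p alone, 7 members were higher and 1, GLUL, was lower, beside 10.3% and 9.35% of all genes. At an unadjusted p under 0.05 the members' counts were also 7 and 1, beside 15.8% and 14.7% of all genes. DESeq2 called 2 members higher and 0 lower, beside 6.65% and 6.01% of the 16999 genes to which it gave an adjusted p. All siDGk libraries lay above all siCON libraries for 7 members, beside 18.7% of all genes, and below them for 1 member, beside 17.3%. The median log2 fold change was 0.36 over the members and 0.02 over all genes tested. Without siDGk replicate 1 a single member, AXIN2, was called (higher), beside 5.86% called higher and 6.48% called lower of the 15243 genes then tested.

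**Figure D1:**
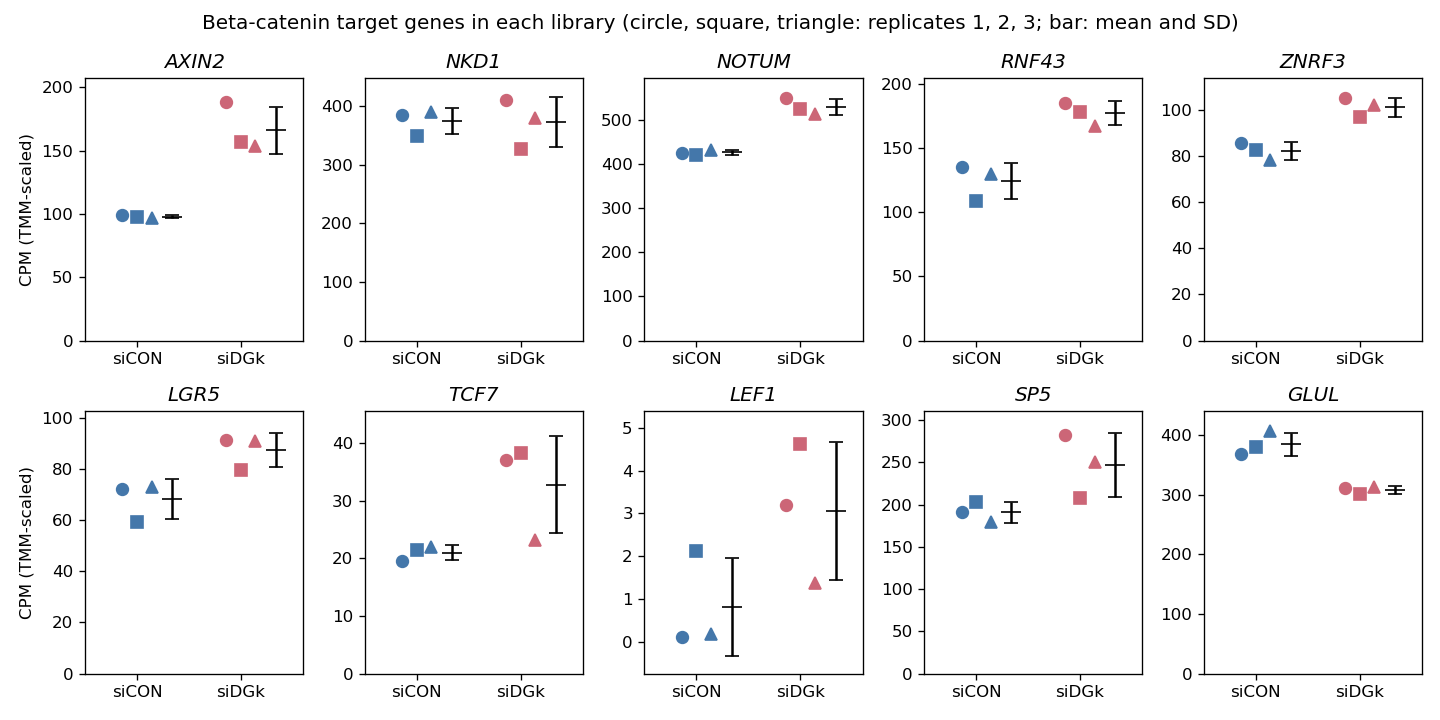
Level of each target gene in CPM (vertical axis) in every siCON and siDGk library, with the group mean and SD at the right of each group. The siDGk points of AXIN2 lie between 154 and 188 CPM, above the siCON points between 96.6 and 98.9 CPM, whereas those of NKD1 overlap.

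AXIN2 encodes a scaffold of the destruction complex and is a widely used readout of the pathway, since it is induced by beta-catenin and promotes its degradation. The gene (ENSG00000168646.12) lies on the minus strand of chromosome 17 of GRCh38 from 65528563 to 65561648. AXIN2 transcripts stood at 98.9, 97.9 and 96.6 CPM in the siCON libraries, in the order of replicates 1, 2 and 3, and at 188, 157 and 154 CPM in the siDGk libraries, in the same order. The siCON libraries were nearly alike, and every siDGk library was above them, with siDGk replicate 1 the highest. AXIN2 rose from 97.8 ± 1.15 to 166 ± 18.5 CPM (SD, n = 3), a fold of 1.70. The log2 fold change was 0.77 with a standard error of 0.10 (95% interval 0.56 to 0.97, with a Benjamini-Hochberg adjusted p of 1.34e-05 in edgeR's quasi-likelihood test). Gencode 44 places another protein-coding gene on the same strand over 25.3% of the AXIN2 exon bases. This other gene has no row in the count table, so it has no counts of its own here.

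The other secreted or cytoplasmic negative regulators had smaller fold changes. NOTUM encodes a secreted enzyme that removes the lipid group from Wnt proteins and so inactivates them. It was at 426, 422 and 432 CPM in siCON and 551, 525 and 515 CPM in siDGk libraries. The groups were separate and each was narrow. Its log2 fold change of 0.31 (SE 0.07, with a Benjamini-Hochberg adjusted p of 0.0034 in edgeR's quasi-likelihood test) passed the adjusted p but was too small for a call. NKD1, whose product binds Dishevelled and restrains signaling, was at 385, 349 and 391 CPM in siCON and 411, 327 and 381 CPM in siDGk libraries. The highest and the lowest of these values both came from siDGk libraries, and the groups overlapped. The log2 fold change of NKD1 was −0.01, with a 95% interval from −0.19 to 0.18.

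RNF43 and ZNRF3 encode related membrane ubiquitin ligases that clear Frizzled receptors from the cell surface, and LGR5 encodes a receptor for R-spondins, which counter both ligases. RNF43, on chromosome 17 from 58353676 to 58417595, was at 135, 109 and 130 CPM in siCON and 185, 178 and 167 CPM in siDGk libraries. The groups did not overlap, and siCON replicate 2 was the lowest library. RNF43 rose from 124 ± 13.9 to 177 ± 9.33 CPM (SD, n = 3). Its log2 fold change was 0.505 (SE 0.10, with a Benjamini-Hochberg adjusted p of 8.79e-04 in edgeR's quasi-likelihood test). This value sits on the fold threshold, and the call was lost with RLE normalization, with library sizes over tested genes, with DESeq2 (shrunken or not), without siCON replicate 2 (0.42) and without siDGk replicate 1 (0.45). Gencode 44 also places a same-strand protein-coding gene over 68.4% of the RNF43 exon bases. That gene has no row in the count table, so it has no counts of its own here.

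ZNRF3 was at 85.7, 82.5 and 78.2 CPM in siCON and 105, 96.8 and 102 CPM in siDGk libraries. The groups were separate by a smaller margin than for AXIN2. The log2 fold change of ZNRF3 was 0.30 (SE 0.10, with a Benjamini-Hochberg adjusted p of 0.0427 in edgeR's quasi-likelihood test), under the fold threshold. Over 14 alternatives the Benjamini-Hochberg adjusted p of ZNRF3 ran from 0.0371 to 0.1603 in edgeR and DESeq2, on both sides of the threshold. LGR5 was at 72.3, 59.2 and 73.1 CPM in siCON and 91.4, 79.9 and 91.1 CPM in siDGk libraries. Replicate 2 was the lowest library in both groups, and the groups did not overlap. The log2 fold change of LGR5 was 0.36 (SE 0.12, with a Benjamini-Hochberg adjusted p of 0.0363 in edgeR's quasi-likelihood test), also under the threshold for a call. Without siCON replicate 2 it was 0.27. Over 14 alternatives its Benjamini-Hochberg adjusted p ran from 0.0220 to 0.1527 in edgeR and DESeq2.

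**Figure D2:**
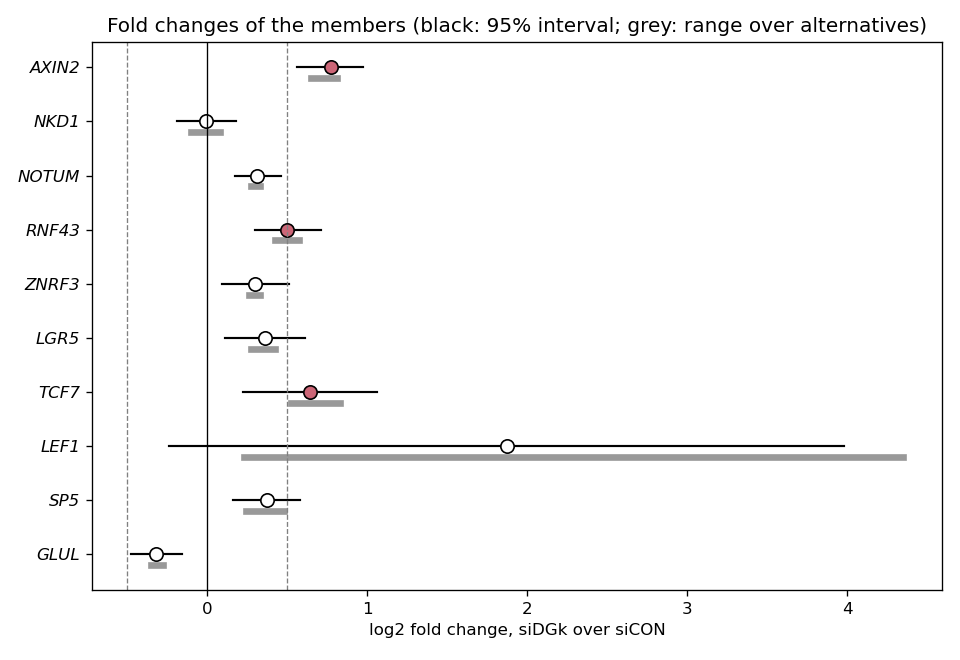
Log2 fold change of each target gene in siDGk over siCON cells (horizontal axis), with filled points for called genes, black lines for 95% intervals, grey bars for the range over 14 alternative settings and dashed lines at the fold threshold. AXIN2 stays above the threshold over its whole range, from 0.65 to 0.81, and LEF1 has the widest range, from 0.23 to 4.35.

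Among the transcription factors, SP5 is a zinc finger repressor and one of the most direct beta-catenin targets. It was at 191, 203 and 179 CPM in siCON and 282, 208 and 250 CPM in siDGk libraries. All siDGk libraries were above the siCON libraries, although siDGk replicate 2 was close to siCON replicate 2. The log2 fold change was 0.37 (SE 0.10, with a Benjamini-Hochberg adjusted p of 0.0141 in edgeR's quasi-likelihood test), too small for a call. Without siDGk replicate 1 it was 0.24. Over 14 alternatives its Benjamini-Hochberg adjusted p ran from 0.0016 to 0.1360 in edgeR and DESeq2.

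Promoters from 250 bases before to 50 bases after the transcription start were taken from a set of RefSeq promoters (GRCh38.p14). In this set 5 of the 10 members matched by symbol: GLUL, LEF1, RNF43, SP5 and TCF7, with 8 promoters in all. The set had no entry for AXIN2, LGR5, NKD1, NOTUM and ZNRF3, so their promoters were not searched. The letters CTTTGAT and CTTTGAA, the core that TCF and LEF factors recognize, were searched on both strands. They were found in 1 of the 8 promoters, that of SP5, which holds CTTTGAT on its own strand and CTTTGAA at 2 places on the opposite strand, with no overlap between matches. Among all 35116 RefSeq promoters of the set, 2.62% hold CTTTGAT, 4.43% hold CTTTGAA and 6.86% hold either. SP5 was not called, and the promoters of RNF43 and TCF7, which were called higher, held 0 matches. The SP5 promoter is shown because it is the member promoter with matches. It is given 5′ to 3′ on the plus strand (chr2:170715087-170715386), with the matched letters in capitals. A match is a description of the sequence and not a measured binding site.
SP5: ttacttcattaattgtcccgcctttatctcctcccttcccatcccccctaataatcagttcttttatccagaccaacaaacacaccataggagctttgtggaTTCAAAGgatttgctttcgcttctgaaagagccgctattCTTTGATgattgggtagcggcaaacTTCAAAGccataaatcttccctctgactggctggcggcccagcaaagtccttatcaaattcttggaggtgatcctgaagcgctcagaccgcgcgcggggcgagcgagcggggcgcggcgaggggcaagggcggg

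TCF7 encodes a partner of beta-catenin on DNA and is itself a target. The gene lies on chromosome 5 from 134114681 to 134151865. It was at 19.6, 21.4 and 22.0 CPM in siCON and 37.1, 38.2 and 23.1 CPM in siDGk libraries. The groups did not overlap, but siDGk replicate 3 was close to the siCON libraries and far from the other siDGk libraries. TCF7 rose from 21.0 ± 1.26 to 32.8 ± 8.39 CPM (SD, n = 3). Its log2 fold change was 0.64 (SE 0.20, with a Benjamini-Hochberg adjusted p of 0.0282 in edgeR's quasi-likelihood test). The call was lost when any 1 library other than siDGk replicate 3 was left out, with log2 fold changes between 0.52 and 0.68, and without siDGk replicate 3 the value was 0.83. The opposite-strand gene SKP1 shares 2.1% of the TCF7 exon bases, and reads were counted without regard to strand.

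LEF1, a close relative of TCF7, had few reads, with 2, 40 and 2 counts in siCON and 59, 75 and 30 counts in siDGk libraries. The corresponding levels were 0.107, 2.13 and 0.191 CPM in siCON and 3.19, 4.62 and 1.38 CPM in siDGk libraries. Because siCON replicate 2 was above siDGk replicate 3, the groups overlapped. The log2 fold change of 1.87 had a standard error of 1.00 and a 95% interval from −0.24 to 3.98 (with a Benjamini-Hochberg adjusted p of 0.2236 in edgeR's quasi-likelihood test). LEF1 was called only without siCON replicate 2, where the log2 fold change was 4.35, and DESeq2's shrunken value was 0.23.

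TCF7 and LEF1 are also T cell genes, so leukocyte markers were read beside them. Of 8 leukocyte markers, 7 were in the table and tested, and 0 were called in edgeR's test, in either direction. Over all genes, 7.42% were called higher and 6.68% lower, and with 7 genes a count of 0 lies near these shares. At an unadjusted p under 0.05, 1 marker was higher, beside 15.8% of all genes. DESeq2 called 0, beside 6.65% higher and 6.01% lower of its genes. With replicate number as a block, edgeR called 2 of the markers higher, beside 1083 of all 14476 genes. The count was also 2 without siCON replicate 2. LYZ was the most abundant and made up most of their summed level, which was 1615, 1710 and 1709 CPM in siCON and 1913, 1768 and 1777 CPM in siDGk libraries. Without LYZ the sum was 5.45, 14.1 and 9.34 CPM in siCON and 17.1, 22.1 and 13.8 CPM in siDGk libraries. The marker sum without LYZ was thus highest in siDGk replicate 2 and, among siCON libraries, in siCON replicate 2, which also had the highest LEF1 counts of each group. PTPRC, which marks leukocytes in general, had 9, 55 and 2 counts in siCON and 37, 129 and 58 counts in siDGk libraries. CD68 was at 0 in siCON replicate 3, CD14 in siDGk replicate 2 and CD3E in siDGk replicate 3.

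A list of 12 T cell genes, chosen after the values were seen, summed to 158, 167 and 160 CPM in siCON and 122, 172 and 106 CPM in siDGk libraries. CD7 was the most abundant of them, at 140, 142 and 141 CPM in siCON and 69.3, 78.7 and 59.1 CPM in siDGk libraries, and it was called lower. Without CD7 the sum was 18.2, 24.7 and 18.6 CPM in siCON and 52.7, 93.2 and 47.3 CPM in siDGk libraries. Of this sum, LCK alone held 13.0, 12.8 and 11.1 CPM in siCON and 34.3, 40.7 and 34.7 CPM in siDGk libraries. This sum was higher in all siDGk libraries and highest in replicate 2 of each group, but its genes did not all follow it. CD2, CD3E, CD5 and CD6 were at 0 in siDGk replicate 3. Of 9 tested T cell genes, LCK and TRBC2 were called higher (22.2%, beside 7.42% of all genes). A single gene of this list was called higher with DESeq2, without replicate 1 or 3 of siCON and without replicate 2 of siDGk, whereas 3 were in the blocked fit, without a count filter and without replicate 2 of siCON. CD2 had 0, 20 and 0 counts in siCON and 2, 115 and 0 counts in siDGk libraries. The part of T cell transcripts in the TCF7 and LEF1 values was not tested.

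GLUL encodes glutamine synthetase, which pericentral hepatocytes use to capture ammonia and which depends on beta-catenin in the liver. It was the member whose siDGk libraries were all lower, at 369, 380 and 407 CPM in siCON and 312, 301 and 313 CPM in siDGk libraries. The groups were separate and the siDGk libraries nearly alike. The fold change on the log2 scale was −0.32 (SE 0.07, with a Benjamini-Hochberg adjusted p of 0.0044 in edgeR's quasi-likelihood test), under the threshold for a call. Over 14 alternatives the Benjamini-Hochberg adjusted p of GLUL ran from 7.24e-05 to 0.0593 in edgeR and DESeq2. The summed hepatocyte markers were also lower in every siDGk library, and their part in the GLUL value was not tested.

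**Figure D3:**
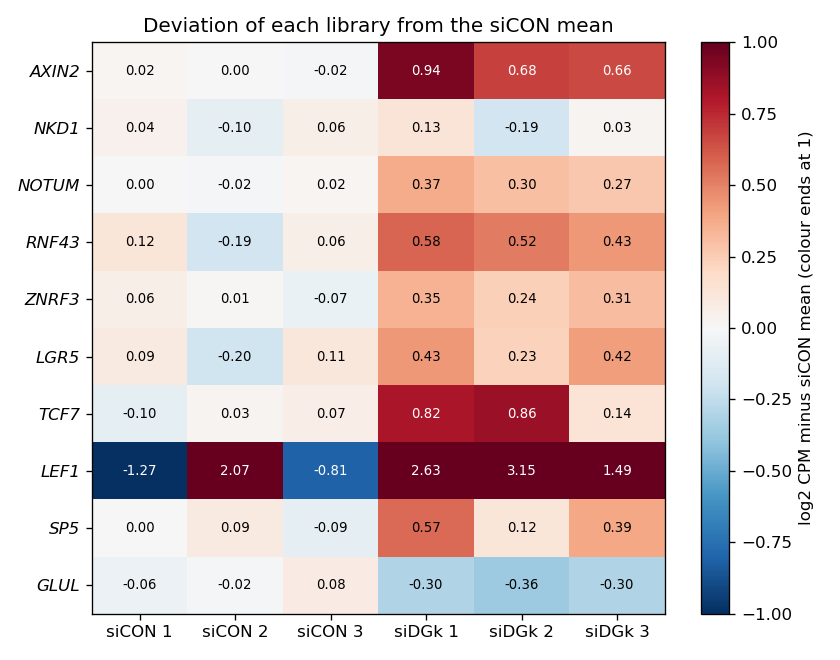
Difference of each library's log2 CPM from the siCON mean of the same gene (numbers and colours), with target genes in rows and libraries in columns. AXIN2 is between 0.66 and 0.94 in the siDGk libraries, GLUL is between −0.36 and −0.30, and TCF7 in siDGk replicate 3 is at 0.14.

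Levels were compared between genes as CPM per kilobase of exon. On this scale NOTUM was the most abundant member in siCON cells, at 146 ± 1.85 CPM per kilobase (SD, n = 3), followed by SP5 at 92.1 ± 5.97 and GLUL at 30.5 ± 1.57. NKD1 (21.6 ± 1.31), RNF43 (19.7 ± 2.19) and AXIN2 (18.8 ± 0.222 CPM per kilobase) followed, with RNF43 within its spread of both neighbours. LGR5 and ZNRF3, at 13.1 ± 1.49 and 11.8 ± 0.543 CPM per kilobase, did not differ beyond their spread either. TCF7 was at 2.08 ± 0.125 and LEF1 at 0.151 ± 0.214 CPM per kilobase, the lowest levels. In siDGk cells AXIN2, at 32.0 ± 3.56 CPM per kilobase, and RNF43, at 27.9 ± 1.47, were above GLUL, at 24.4 ± 0.537, on this scale. In CPM the order was the reverse, with GLUL at 308, RNF43 at 177 and AXIN2 at 166 in siDGk cells. The order between genes thus depends on exon length, which was 12638 bases for GLUL, 6329 for RNF43 and 5197 for AXIN2.

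The choice of length scale matters for the comparison between groups. TPM, which divides by the length-scaled total of each library, was computed first, and CPM per kilobase was added after the TPM values were seen. In siDGk replicate 1, genes under 300 exon bases held 28.0% of TPM, whereas in the other libraries they held between 0.987% and 1.43%. TRDJ2, a joining segment of the T cell receptor delta locus with 54 exon bases, alone held 15.3% of TPM in siDGk replicate 1 and 0.00% in each siCON library. Every TPM value of that library is lowered by this total. The ratio of siDGk to siCON means for AXIN2 was 1.51 in TPM and 1.70 in CPM per kilobase. AXIN2, TCF7 and SP5 kept all siDGk libraries above the siCON libraries in TPM, and GLUL kept all below. For LGR5, NOTUM, RNF43 and ZNRF3 the groups overlapped in TPM, although they did not in CPM.

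Among 9225 genes that averaged 10 CPM or more, those whose log2 CPM followed AXIN2 most closely over the 6 libraries included CSF1, PTCH1, MGME1 and RPS6KA4. For these, Pearson's r was between 0.9951 for RPS6KA4 and 0.9970 for CSF1. With 6 libraries in 2 groups, any gene with a clear difference between groups can reach a high r, so these values are a description. CSF1, the gene of a macrophage growth factor, was at 47.9 CPM on average in siCON and 89.0 CPM on average in siDGk cells. PTCH1, the Hedgehog receptor gene, was at 12.2 and 24.7 CPM.

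Other genes were read from 6 lists of the Wnt pathway and its targets and from 2 lists of liver zonation genes, with 127 different genes in all, of which 84 were tested. Over the 8 lists, calls from edgeR numbered 11 higher and 13 lower, or 10 and 12 without siDGk replicate 1. With all libraries these are 13.1% and 15.5% of the tested genes, beside 7.42% and 6.68% of all genes, and the median log2 fold change was −0.09, beside 0.02 over all genes. Of the 13 genes called lower, 6 are zonation genes. The 6 Wnt lists alone, a split made after the values were seen, had 73 tested genes, with 11 called higher (15.1%), 7 called lower (9.59%) and a median of 0.00. Without siDGk replicate 2, 4 genes of these Wnt lists were called lower. Among ligands and secretion factors, 7 of 25 genes were tested and 1 (14.3%) was called higher. WNT7B, which encodes a Wnt ligand, was at 1.18, 0.00 and 2.57 CPM in siCON and 27.4, 21.5 and 24.0 CPM in siDGk libraries. Every siDGk library was above every siCON library, and siCON replicate 2 had no count. The fitted log2 fold change of 4.44 had a standard error of 0.77, and DESeq2's shrunken value was 2.71. The WNT7B value was 3.77 without siCON replicate 2 and 5.36 without siCON replicate 3.

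Of 13 receptor genes tested, 4 were called lower and 1 higher. These are 30.8% and 7.69%, beside 6.68% and 7.42% of all genes. Receptor genes had a median of −0.40 on the log2 scale. LGR4, an R-spondin receptor related to LGR5, was at 219, 205 and 222 CPM in siCON and 106, 91.0 and 104 CPM in siDGk libraries. These groups lay far apart, with a log2 fold change of −1.10 (SE 0.09). The Frizzled gene FZD4 had a log2 fold change of −0.95, and FZD5 had one of −0.67. LRP5, which encodes a Wnt co-receptor, had a log2 fold change of −0.57, or −0.49 and no call without siDGk replicate 2. Its relative LRP6 was not called (−0.40, with a Benjamini-Hochberg adjusted p of 0.0777 in edgeR's quasi-likelihood test) except without siCON replicate 2, where it was at −0.50. FZD6 was the receptor gene called higher, with a log2 fold change of 0.56; its call was lost without replicate 1 or 3 of siCON and without replicate 2 of siDGk, which gave 0.44, and also with DESeq2's shrunken fold changes.

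Among 20 tested genes of the destruction complex and cytoplasmic signaling, 2 were called higher and 2 lower, with a median log2 fold change of −0.08. These are 10.0% in each direction, near the 7.42% called higher and 6.68% called lower of all genes. Without siDGk replicate 1, 1 was called higher. CTNNB1, which encodes beta-catenin, was at 413, 445 and 422 CPM in siCON and 647, 667 and 613 CPM in siDGk libraries. All siDGk libraries were above all siCON libraries, and the log2 fold change was 0.59 (SE 0.07, with a Benjamini-Hochberg adjusted p of 8.79e-06 in edgeR's quasi-likelihood test). Transcript counts do not show the amount of beta-catenin protein. DVL1, a Dishevelled gene, was at a log2 fold change of 0.52, but its call was gone without siCON replicate 1, siDGk replicate 1 or siDGk replicate 2, and with DESeq2's shrunken fold changes. AMER1, whose product binds APC, had a log2 fold change of −1.56. FRAT1, which encodes a GSK3-binding protein, had one of −1.32 at low levels, and was not called when any 1 library other than siDGk replicate 1 was left out. The core scaffold genes APC (−0.08) and AXIN1 (−0.19) were not called.

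Of 7 tested secreted and membrane inhibitors, edgeR's test called 0 in either direction, beside 7.42% called higher and 6.68% called lower of all genes. At an unadjusted p under 0.05, 3 had higher and 1 had lower values, and DESeq2 also called 0. Without siCON replicate 1 or siDGk replicate 3, 1 was called higher. Their median log2 fold change was 0.24. Nuclear partners of beta-catenin had 1 gene called higher and 1 called lower among 12 tested (8.33% in each direction), with a median of 0.01. The number called lower was 2 with DESeq2, with replicate number as a block and without siDGk replicate 1. BCL9L, a coactivator gene, had a log2 fold change of 0.56, or 0.47 and no call without siCON replicate 3. The corepressor gene TLE1 had one of −0.56, and lost its call without siDGk replicate 2 or siDGk replicate 3. TCF7L2 (−0.11) and TCF7L1 (−0.22), the other TCF genes, were not called.

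**Figure D4:**
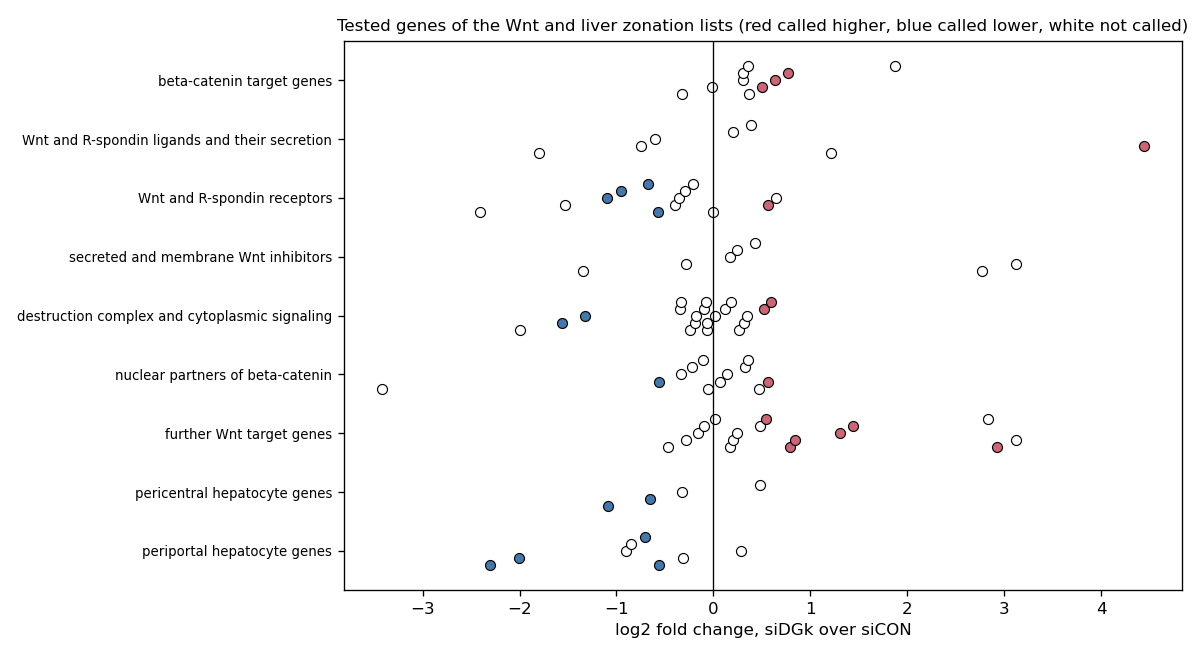
Log2 fold change in siDGk over siCON cells (horizontal axis) of each tested gene in the target genes, the 6 Wnt lists and the 2 liver zonation lists (rows), with filled points for called genes. The further target genes have 6 points called higher and 0 called lower, and the receptors have 1 called higher and 4 called lower.

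A list of 20 further Wnt targets had 17 genes tested, of which 6 were called higher and 0 lower in edgeR's test. These are 35.3% and 0.00%, beside 7.42% and 6.68% of all genes. At an unadjusted p under 0.05, 0 had a lower value, and DESeq2 called 0 lower. With replicate number as a block, 7 were called higher. The median log2 fold change was 0.48. SOX4, a transcription factor gene, was at 215, 184 and 214 CPM in siCON and 498, 507 and 514 CPM in siDGk libraries. The siDGk values were tightly grouped and far above the siCON values, with a log2 fold change of 1.31 (SE 0.08). CCND1, the cyclin D1 gene, had a log2 fold change of 0.79. JUN and FOSL1, which encode AP-1 subunits, had log2 fold changes of 0.84 and 1.44. MMP7, a matrix protease gene, had one of 2.92 from low siCON levels. PPARD, a nuclear receptor gene, had one of 0.54, and was not called without siCON replicate 3 or siDGk replicate 3, and the latter gave 0.37. PPARD was not called with DESeq2's shrunken fold changes either. MYC, also on the list, was not called (0.02). Many of these genes respond to other pathways as well.

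The zonation genes called were lower in siDGk cells in both liver zones. Of 10 pericentral genes 4 were tested, and 2 were called lower, beside 6.68% of all genes, with a median log2 fold change of −0.48. The genes called lower were SLC1A2, a glutamate transporter gene (−1.09), and RHBG, an ammonium transporter gene (−0.65), whose call was lost without replicate 1 or 2 of siCON and without replicate 1 or 3 of siDGk. DESeq2 called 3 pericentral genes lower, of which 1 had been removed by the count filter of edgeR. In edgeR 1 was called lower without siCON replicate 2, siDGk replicate 1 or siDGk replicate 3, and 1 was called higher without siCON replicate 3. Of 11 periportal genes 8 were tested, and 4 were called lower, beside the same 6.68% of all genes, with a median of −0.78. Without siDGk replicate 1, 3 were called lower. HAL, for histidine degradation, had a log2 fold change of −2.30 and G6PC, for glucose release, one of −2.01. G6PC was at −2.90 without siDGk replicate 2 and at −1.57 without siDGk replicate 3. The urea cycle genes ASS1 and CPS1 had log2 fold changes of −0.71 and −0.56, and CPS1 was not called when replicate 1 of either group was left out or with DESeq2's shrunken fold changes.

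Markers of other cell types were also read. The summed level of 6 endothelial markers was 1.66, 1.39 and 2.29 CPM in siCON and 4.48, 59.3 and 4.05 CPM in siDGk libraries, so that siDGk replicate 2 stood apart. VWF was the most abundant in that library, at 31.4 CPM, and STAB2 was at 0 in all libraries. Of the 6, 3 were tested and 0 were called in edgeR's test, while 2 were higher at an unadjusted p under 0.05 and 1 was called higher with replicate number as a block and without siCON replicate 3, siDGk replicate 1 or siDGk replicate 3. DESeq2 called 1 higher, beside 6.65% of its genes, and the count filter of edgeR had removed this gene. The sum of 6 fibroblast and stellate markers was 12.1, 15.0 and 10.3 CPM in siCON and 42.4, 56.1 and 21.6 CPM in siDGk libraries. COL1A1 was the most abundant in siDGk libraries and PDGFRB in siCON libraries. In edgeR's test COL1A1 was called higher and PDGFRB lower, out of 3 tested. These are 33.3% in each direction, beside the same 7.42% and 6.68% of all genes. DESeq2 gave all 6 an adjusted p and called 3 higher and 1 lower, beside 6.65% and 6.01% of its genes. Of those called higher, 2 had been removed by the count filter of edgeR. In edgeR 2 were called higher in the blocked fit and without replicate 1 or 3 of siCON, and 4 without siDGk replicate 3. The filter was applied again each time a library was left out. The number called lower was 0 when any 1 library other than siDGk replicate 2 was left out. DCN and LUM were at 0 in every siCON library. Of the 2 cholangiocyte markers, KRT19 was called higher, from between 733 and 979 CPM to between 2305 and 2763 CPM. The part of these transcripts in the values of the target genes was not tested.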

How the data were processed

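Bulk RNA-seq libraries of 3 siCON and 3 siDGk cultures were analysed. The deposited values are whole counts per gene, which the authors made by aligning reads to GRCh38 with STAR 2.6.1 and counting with featureCounts 1.6.5 on Gencode 27, without normalization. Default counting ignores strand and leaves out reads that overlap several genes.

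Counts were filtered with filterByExpr (minimum count 10), scaled by TMM with library sizes over all genes, and compared with the robust quasi-likelihood test of edgeR 4.0.16 in R 4.3.3 on condition. Benjamini-Hochberg adjustment covered all 14476 genes tested. Standard errors were derived from the F statistic and the fitted log2 fold change. Alternatives used DESeq2 1.42.0, apeglm 1.24.0, other normalizations, filters and thresholds, a replicate block and each library left out. Library sizes over tested genes, CPM per kilobase, the T cell list and its alternatives, and counts over the Wnt lists without the zonation lists were added after seeing the data. TPM had been computed first and is given beside CPM per kilobase. Scripts were tested on simulated data.

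Coordinates and exon lengths (the union of a gene's exons) came from Gencode 44 on GRCh38, and promoters from RefSeq. The members, the pathway and marker lists and the tests were chosen with earlier results of these data known. Named genes were the members, DGUOK, called genes of the pathway lists, 8 core pathway genes whatever their call, and the 5 genes most like AXIN2, of which 1 is not reported here; others were named after their values were seen. Intervals cover the spread of these cultures only.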

Additional observations from a re-analysis of the deposited data

How the results depend on the processing

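Over 14 alternatives, 124 of 140 member values and 460 of 490 values of other named genes kept their direction and their side of the threshold. AXIN2 and DGUOK were called in all 14, with DGUOK between −2.72 and −2.42 with 1 library left out. RNF43 lost its call at 0.50 with RLE normalization, DESeq2 and library sizes over tested genes, and at 0.47 with shrunken fold changes. With 1 library left out it ranged from 0.42 to 0.57, TCF7 from 0.52 to 0.83 and LEF1 from 1.35 to 4.35. NKD1 changed sign to 0.00 without a count filter, and ranged from −0.10 to 0.08 with 1 library left out, with positive values of 0.01 without siCON replicate 1, 0.03 without siCON replicate 3 and 0.08 without siDGk replicate 2. TCF7L1 ranged from −0.64 to 0.26 (without siCON replicate 2) and TCF7L2 from −0.28 to 0.04 (without siDGk replicate 3). The cause was not tested.

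The number of members called higher was between 1 and 3 with 1 library left out, 7 at the adjusted p alone and 0 above a log2 fold change of 1. The number called lower was 1 at the adjusted p alone. Above a log2 fold change of 1, 4 genes of the Wnt and zonation lists were called higher and 6 lower (4 and 3 in the Wnt lists alone), and over all genes 464 were higher and 355 lower. The median log2 fold change of all genes was 0.144 without a count filter and 0.129 with DESeq2, where 24670 genes were included. With replicate number as a block, 3 members were called higher and 0 lower. Each gene's group mean was subtracted from its log2 CPM, and same-numbered libraries were then correlated over all genes tested. These correlations were 0.0240, 0.0166 and −0.00224 for replicates 1, 2 and 3, so replicate numbers showed no pairing over all genes together. Pairing in single genes was not tested. LEF1 had few counts, and its siCON libraries differed, with 2, 40 and 2 counts.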
